A study of Homo sapiens with 12 samples.

Results

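The squamous differentiation and desmosome genes described here are a list of 51 symbols drawn from the cornified envelope, the desmosome, the serpin B and kallikrein clusters, tight and gap junctions and other squamous epithelial proteins. They were found in the mRNA-seq table by matching Ensembl identifiers to symbols, and 50 of the 51 were among its 17013 genes. CALML3 was not analysed here. The experiment used HCC1806, a triple-negative breast cancer (TNBC) cell line, in 4 groups of 3 libraries. Cells received a non-targeting control siRNA (siNT) or a pool of siRNAs against MLK4 (siMLK4), a mixed-lineage kinase encoded by MAP3K21, and 24 h later were given 1 μM doxorubicin, a topoisomerase II poison, or no drug for another 24 h. The groups are therefore siNT vehicle, siNT doxorubicin, siMLK4 vehicle and siMLK4 doxorubicin. The labels call the cells without drug DMSO-treated and mark them as time 0. The study's methods call them untreated, while its results name vehicle and a supplementary legend names DMSO. All 4 groups come from transfections of the same line, each siRNA arm holds a single siRNA preparation, and nothing in the labels ties the triplicates to separate days, so that the p-values below measure the spread between transfected cultures.

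Squamous epithelia such as the epidermis build a barrier in their outer layers. Involucrin, the small proline-rich (SPRR) proteins and the plakins are cross-linked by transglutaminases into a cornified envelope under the membrane, kallikrein-related peptidases cut the junctions that hold the dead cells together, and serpins and other inhibitors restrain these peptidases. Desmosomes tie neighboring cells to each other through desmogleins and desmocollins, which plakoglobin, plakophilins and desmoplakin connect to the keratin filaments. HCC1806 was derived from a squamous carcinoma of the breast.

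The label was first set against marker genes. All 9 markers of basal and squamous epithelium were measured, and the most abundant, the basal keratin gene KRT5, had a mean of 17250 normalized reads over the 12 libraries. TP63, which encodes the basal transcription factor p63, had a mean of 4837 normalized reads in siNT vehicle cells. The 8 markers of luminal breast epithelium were also measured, with KRT8 the highest in reads at 23540 and a sum of 58890 to 79020 in siNT vehicle, 42870 to 55310 in siNT doxorubicin, 62430 to 92010 in siMLK4 vehicle and 26940 to 41670 in siMLK4 doxorubicin, so that the line carried keratins of both kinds. Of the keratins of the upper epidermis, KRT10 had a mean of 868.5 normalized reads and KRT1 a mean of 38.72 in siNT vehicle cells. Of the fibroblast markers 3 of 6 were measured, with COL1A1 the most abundant at a mean of 371.9, and COL1A2, COL3A1 and DCN were not analysed here. Their sum was 474.5, 390.4 and 451.3 normalized reads in siNT vehicle, 306.3, 285 and 281.9 in siNT doxorubicin, 728.4, 666.6 and 833.5 in siMLK4 vehicle and 414.7, 361.8 and 502.6 in siMLK4 doxorubicin. The sums of the 2 measured immune markers, of which CD14 was the more abundant, lay between 12.92 and 36.75 in the vehicle libraries and between 38.68 and 64.21 in the doxorubicin libraries, and the single measured endothelial marker VWF between 13.5 and 67.14. The basal and squamous markers themselves fell with doxorubicin, 6 of 9 in siNT and 7 of 9 in siMLK4 cells (10.6% of all genes were called lower in each), and their summed level went from 52570, 57130 and 57500 in siNT vehicle to 23250, 23400 and 26680 in the siNT doxorubicin libraries. In siMLK4 cells the sums were 55490, 51930 and 59050 in vehicle and 15380, 14170 and 17330 with doxorubicin. Fewer cells of a type and less RNA per cell cannot be told apart in these bulk libraries, and the part of such a shift in the results below was not tested.

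Each library held between 16759025 and 19302248 reads on the genes of the table. Levels are given in normalized reads, which are the reads recovered from the deposited values divided by the authors' size factors, as mean ± SD over 3 libraries. Log2 fold changes come from the variance-stabilized values with limma over all 17013 genes and 12 libraries, and a gene was called when its Benjamini-Hochberg adjusted p was under 0.01 and its absolute log2 fold change over 0.75. That scale shrinks the changes of weakly expressed genes, so ratios of mean normalized reads are given beside them. Replicates within groups were farther apart than counting error allows, and 2 vehicle libraries stood apart. The chi-square per degree of freedom was 57.28 between siNT vehicle replicates 1 and 3 and 64.07 between siMLK4 vehicle replicates 1 and 3, against 7.03 to 37.7 for the other pairs. Counts are given below with and without siNT vehicle replicate 1 and siMLK4 vehicle replicate 3.

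MAP3K21 (chr1:233327724-233385148, + strand, GRCh38) was read first, as a check on the siRNA labels. In vehicle, its normalized reads were 553.1, 669.6 and 673.6 with siNT and 103.2, 94.66 and 88.65 with siMLK4. With doxorubicin the values were 757.6, 856.1 and 771.6 in siNT and 112.8, 138.4 and 94.35 in siMLK4 cells, so that the siRNA arms did not overlap in either condition. The pool left 15.1% of MAP3K21 reads without drug and 14.5% with it (log2 fold changes −2.24, adjusted p = 9.74e-08, and −2.37, adjusted p = 1.12e-07). The strands of the 4 pooled siRNAs matched 2 of the 3 annotated MAP3K21 transcripts over 19 bases. Their antisense complements are shown because these strands guide silencing, with the seed (bases 2 to 8), through which an siRNA can also lower other transcripts, in capitals:
siMLK4 1: uCUCUCUGagcaucuuucc
siMLK4 2: uUUACCUUgggcuucuccu
siMLK4 3: aUUCCCUCucguuucuucu
siMLK4 4: uUUCUUUGcaaucuguucu

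Genes with an annotated 3′UTR were searched there for a match of 7 bases to any of these seeds, and genes without one were left out. A match was present in 52.6% of the 13587 such genes tested. It was present in 65.6% of the 672 such genes called lower in siMLK4 cells in either condition. Among the squamous and desmosome genes the share was 32%, and among the 22 of them that were lower in siMLK4 cells it was 22.7%, namely DSC3, IVL, KLK10, LY6K and PKP1. The median 3′UTR length was 590.5 bases for all 50, 428.5 bases for those 22 and 1813 bases for the genes tested, and a longer 3′UTR has more room for a match. Among the genes tested, it was 1948 bases for those lower in siMLK4 cells and 1810 for those not lower. A match is a description and not a shown target.

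Promoters are shown for the genes that were lower in siMLK4 cells and carry the letters TGANTCA. These letters include the AP-1 (JUN and FOS dimers) site, TGAGTCA or TGACTCA, but also TGAATCA and TGATTCA, which are not that consensus. AP-1 lies downstream of the JNK pathway that mixed-lineage kinases feed, and its part in these levels was not tested. RefSeq promoter windows (250 bases before to 50 after the start, GRCh38.p14) were found for 37 of the 50 genes and searched on both strands. TGANTCA, which reads the same on both strands, was in 12 of the 37 (32.4%), against 4.9% of 12030 promoters of genes tested and 7.76% of all 27305 promoters. It was in 7 of 16 promoters of genes called lower in siMLK4 cells (43.8%) and in 5 of 21 of the others (23.8%). Of these 7 genes, IVL, SPRR1A, SPRR1B, SPRR2A and SPRR3 lie together within 149 kb of chromosome 1. The SPRR genes among them are also related to each other, so these promoters are not independent instances. Split by doxorubicin, TGANTCA was in 6 of 18 promoters of genes called lower (33.3%) and in 6 of 19 of the others (31.6%). The GC box GGGCGG was in 37.8% of the 37, against 68.8% of promoters of genes tested, and the grainyhead-like sequence AACCGGTT was in 0 of the 37, against 0.15%. Neither of them overlaps TGANTCA in its letters. The 60 bases around the match farthest upstream in each of the 7 genes lower in siMLK4 cells are given below, with the match in capitals, on the strand of the gene:
IVL (chr1:152908397-152908456, + strand): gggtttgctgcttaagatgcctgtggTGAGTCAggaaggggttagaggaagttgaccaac
SPRR1A (chr1:152983947-152984006, + strand): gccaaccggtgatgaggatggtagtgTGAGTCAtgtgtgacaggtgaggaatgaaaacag
SPRR1B (chr1:153031036-153031095, + strand): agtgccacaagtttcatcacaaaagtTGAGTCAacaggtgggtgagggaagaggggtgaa
SPRR2A (chr1:153057676-153057735, − strand): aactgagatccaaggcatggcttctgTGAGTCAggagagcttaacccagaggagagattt
SPRR3 (chr1:153001553-153001612, + strand): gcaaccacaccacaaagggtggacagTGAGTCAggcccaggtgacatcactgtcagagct
SBSN (chr19:35528451-35528510, − strand): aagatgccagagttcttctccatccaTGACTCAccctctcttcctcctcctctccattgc
SERPINB2 (chr18:63887577-63887636, + strand): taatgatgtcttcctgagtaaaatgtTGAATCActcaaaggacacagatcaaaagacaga

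The matches began 123 bases before the start in IVL, 108 in SPRR1A, 141 in SPRR1B, 197 in SPRR2A, 170 in SPRR3, 173 in SBSN and 102 in SERPINB2, and 5 of them share the letters TGAGTCA. The other 5 promoters with a match belonged to CLDN4, ECM1, LCN2, SERPINB13 and SERPINB5. SERPINB2, SERPINB5 and LCN2 carried TGAATCA alone, so the shares above are not counts of AP-1 sites. Matched letters are not a shown binding site.

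Both doxorubicin and the siRNA pool went with lower levels of many of these genes, and 1 gene, GJB2, was called higher in 1 comparison. With doxorubicin, 22 of 50 were called lower and 0 higher in siNT cells (10.6% of all genes tested were lower and 12.1% higher, 22.7% in all), and 21 were lower and 1 higher in siMLK4 cells (10.6% lower and 12.6% higher, 23.2% in all). In siMLK4 against siNT cells, 17 were called lower and 0 higher in vehicle (3.14% of all genes lower, 2.51% higher, 5.65% in all), and 16 lower and 0 higher with doxorubicin (2.93% lower, 2.66% higher, 5.58% in all). Some members had positive fold changes below the fold threshold. With doxorubicin in siNT cells 11 of 50 were positive, against 8559 of all 17013 genes. Of these 11, 5 had an adjusted p under 0.05 (DSG1, CLDN7, SERPINB2, DSC2 and GJB2). In either direction, 36 of the 50 and 9745 of all 17013 genes passed that level. Over the 50 genes the median log2 fold change was −0.66, −0.61, −0.44 and −0.44 in these comparisons, in that order, and that of all genes between 0.00 and 0.02. Without the 2 vehicle libraries that stood apart the counts of lower genes were 23, 20, 19 and 18. The 4 comparisons share libraries and are not independent of each other. Summed over the 50 genes, the level was 86080, 88650 and 97270 normalized reads in siNT vehicle, 59550, 62640 and 67940 in siNT doxorubicin, 82780, 76410 and 76600 in siMLK4 vehicle and 47140, 46350 and 49500 in siMLK4 doxorubicin, with no overlap between any of the groups.

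**Figure D1:**
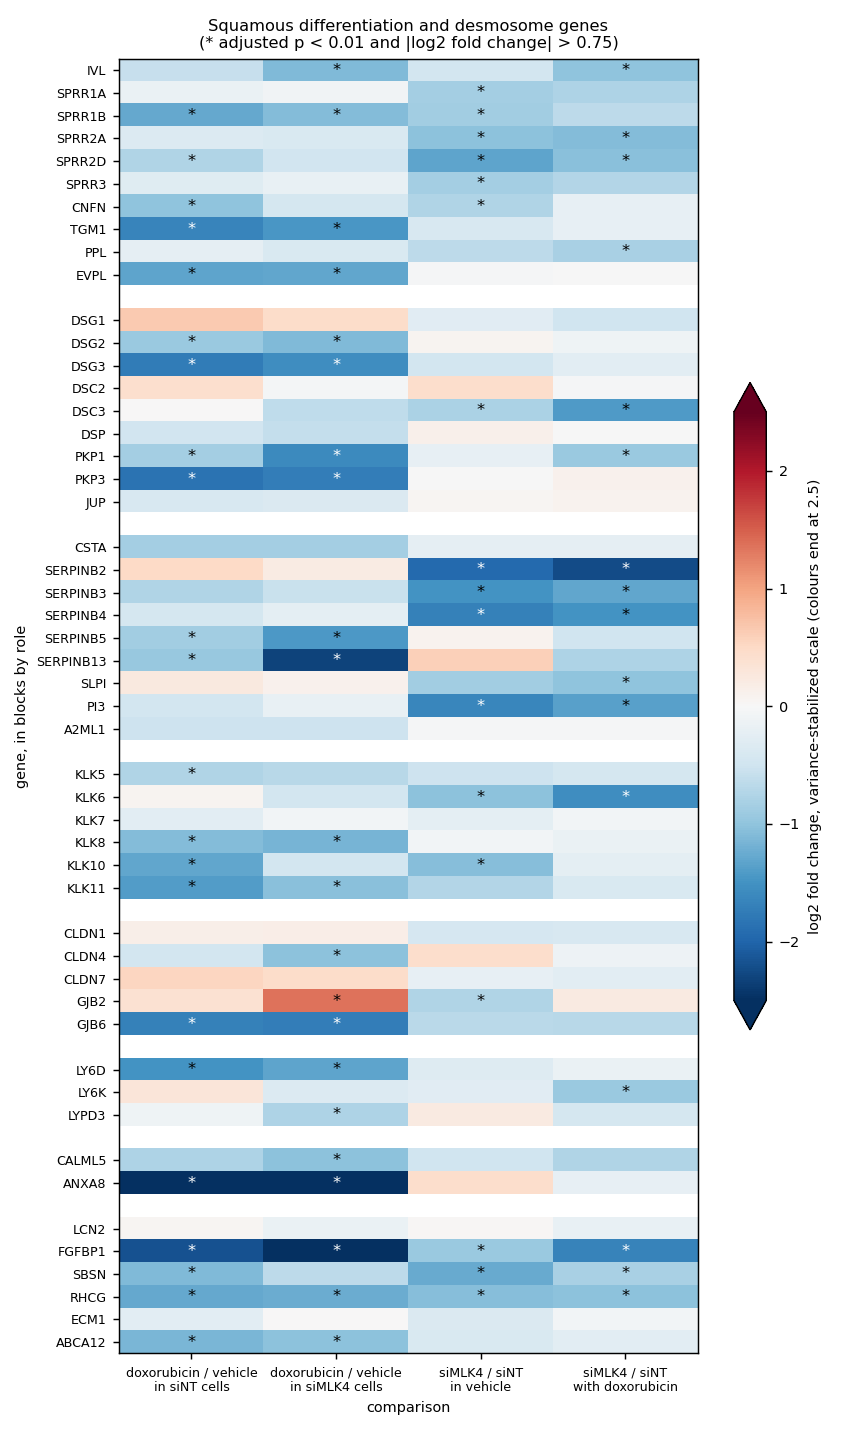
Heat map of log2 fold changes (variance-stabilized scale, colors end at 2.5) of the 50 genes, in blocks by role, in the 4 comparisons (columns), with an asterisk where adjusted p was under 0.01 and the absolute log2 fold change over 0.75. Blue, lower in the condition named first, fills most of the map, and the sole asterisk on red is GJB2 with doxorubicin in siMLK4 cells.

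The scaling bears on these counts. When libraries were scaled by their total reads in place of the authors' size factors, the median over all genes went to 0.18 and 0.16 for doxorubicin in siNT and siMLK4 cells and to 0.11 and 0.09 for siMLK4 in vehicle and with doxorubicin (log2 fold changes), that over the 50 genes to −0.45, −0.47, −0.32 and −0.37, and the share of calls that were lower went from 46.6 to 27.8%, from 45.6 to 30.6%, from 55.6 to 35.4% and from 52.4 to 38.9% of called genes. The squamous and desmosome genes were then called lower in 17, 19, 11 and 15 cases and higher in 2, 1, 0 and 0, while 6.43, 7.49, 2.03 and 2.33% of all genes were called lower. With upper-quartile scaling the lower counts were 18, 19, 13 and 16, against 8.21, 9.86, 2.45 and 2.92% of all genes, and the share of calls that were lower was 36.4, 42.3, 42.6 and 51.3%. Each of the 79 member values followed kept its sign under both scalings. The calls lost with library totals were DSG2, PKP1, SPRR2D, KLK5 and SERPINB5 with doxorubicin in siNT cells, LYPD3 and CALML5 with doxorubicin in siMLK4 cells, CNFN, DSC3, SPRR3, GJB2, SPRR1B and SPRR1A for siMLK4 in vehicle and PPL for siMLK4 with doxorubicin. All of these but DSG2, SPRR3, SPRR1B and PPL were lost with upper-quartile scaling too, as was SLPI for siMLK4 with doxorubicin.

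Relative to their length, the members spanned a wide range of levels. Reads per kilobase of exon, averaged over the 12 libraries, were above the median of all annotated genes (60.15) for 40 of the 50 genes and above their 90th percentile (482.9) for 13. The highest were PI3, which encodes the elastase inhibitor elafin, with 3159 normalized reads per kilobase, the calmodulin-like gene CALML5 with 2279, SLPI, which encodes the secretory leukocyte peptidase inhibitor, with 2002, and SERPINB5, which encodes maspin, with 1753. The lowest were DSG1, the desmoglein of the upper epidermis, with 4.73 and the peptidase gene KLK7 with 5.76.

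Doxorubicin was compared with vehicle within each siRNA group. Of the cornified envelope genes, 5 of 10 were called lower in siNT cells (SPRR1B, SPRR2D, CNFN, TGM1 and EVPL) and 4 of 10 in siMLK4 cells (IVL, SPRR1B, TGM1 and EVPL), and all 10 had a negative fold change in both. The share of all genes called lower was 10.6% in each siRNA group. Of all 17013 genes, 8454 had a negative fold change in siNT and 8284 in siMLK4 cells. TGM1 encodes the transglutaminase that cross-links the envelope at the membrane. It went from 191.4, 145.3 and 168.4 normalized reads in siNT vehicle to 25.84, 28.5 and 23.32 with doxorubicin, and from 124.2, 106.6 and 113.5 to 12.72, 15.84 and 27.22 in siMLK4 cells. Treated and untreated libraries were far apart in both siRNA groups, with the treated mean at 15.4% and 16.2% of the vehicle mean and log2 fold changes of −1.65 (SE 0.13, adjusted p = 2.28e-07) and −1.45 (SE 0.13, adjusted p = 7.36e-07). EVPL, which encodes the plakin envoplakin, went from 1782, 1969 and 1702 to 690.3, 687.1 and 709.7 normalized reads in siNT cells and from 1906, 1882 and 1536 to 684.3, 625.4 and 764.8 in siMLK4 cells. Its partner in the envelope, periplakin (PPL), the envelope gene with the most reads, though not per kilobase, had 3619, 4304 and 4532 normalized reads in siNT vehicle and 3014, 3706 and 3970 in siNT doxorubicin, which overlap, and 3149, 2632 and 2145 against 2013, 1899 and 2046 in siMLK4 cells, which do not. The PPL change did not pass in either (log2 fold change −0.22, adjusted p = 0.204, and −0.39, adjusted p = 0.0325).

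Among the 9 desmosome genes, DSG2, DSG3, PKP1 and PKP3 were called lower with doxorubicin in both siRNA groups, and none was called higher (10.6% of all genes were lower in each, and 12.1% and 12.6% higher). In siNT cells DSG2 (−0.68) and PKP1 (−0.62) fell short of the fold threshold with library totals, and PKP1 (−0.73) also with upper-quartile scaling. PKP3 encodes plakophilin 3, which links cadherin tails to desmoplakin. Its normalized reads were 1898, 1695 and 1345 in siNT vehicle and 436.5, 388.9 and 416.7 in siNT doxorubicin, and 1400, 1722 and 1728 against 446, 386.1 and 533.5 in siMLK4 cells. The treated mean was thus 25.1% and 28.2% of the vehicle mean, with log2 fold changes of −1.85 (SE 0.14, adjusted p = 2.15e-07) and −1.72 (SE 0.14, adjusted p = 4.57e-07). DSG3 encodes desmoglein 3, the cadherin of basal keratinocytes. It had 708.1, 467.2 and 918.3 normalized reads in siNT vehicle and 126.4, 165.9 and 213.9 in siNT doxorubicin, and 509, 411.5 and 508.1 against 126.3, 116.7 and 148.8 in siMLK4 cells. These groups did not overlap despite the spread in vehicle, and the log2 fold changes were −1.75 (SE 0.20, adjusted p = 6.17e-06) and −1.55 (SE 0.20, adjusted p = 1.75e-05).

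The neighboring cadherin genes of the same cluster, which spans 560 kb of chromosome 18 (chr18:30989365-31549008), had other values. DSG1, at 24.66, 20.76 and 32.56 normalized reads in siNT vehicle, had 42.45, 72.27 and 76.04 with doxorubicin. That is 245% of the vehicle mean, but the log2 fold change of 0.66 (adjusted p = 0.0033) did not reach the fold threshold. In siMLK4 cells DSG1 was at 211% of the vehicle mean, without overlap, and was not called either (0.45, adjusted p = 0.0281). DSC2 and DSC3, which encode desmocollins, had log2 fold changes of 0.42 and 0.00 in siNT and −0.05 and −0.63 in siMLK4 cells, none of them called. The core of the desmosome was not called either. DSP, which encodes desmoplakin and had more normalized reads than the other desmosome genes, though fewer per kilobase than JUP, varied widely within groups, with 10360, 14670 and 19210 in siNT vehicle and 8783, 12560 and 9931 in siNT doxorubicin. In siMLK4 cells it had 20070, 15640 and 12100 in vehicle and 10300, 12140 and 8674 with doxorubicin, again with overlap. JUP, which encodes plakoglobin, was tighter, with the treated mean at 75.8% and 77.4% of the vehicle mean and a log2 fold change of −0.40 and −0.37 (adjusted p = 0.00345 and 0.00584), under the fold threshold.

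Outside the envelope and the desmosome, the largest decreases with doxorubicin on the variance-stabilized scale were in ANXA8 and FGFBP1, while by mean normalized reads LY6D was lower, at 6.29% and 6.22% of vehicle in siNT and siMLK4 cells, and KLK8 stood at 19.5% in siNT cells. ANXA8 encodes the calcium-dependent membrane-binding protein annexin A8. It had 2057, 2420 and 2583 normalized reads in siNT vehicle and 284.2, 296.2 and 419.7 in siNT doxorubicin, and 3207, 2953 and 3411 against 249.3, 220.1 and 384.7 in siMLK4 cells. The treated mean was 14.2% and 8.92% of the vehicle mean, with log2 fold changes of −2.65 (SE 0.17, adjusted p = 6.69e-08) and −3.30 (SE 0.17, adjusted p = 2.23e-08). ANXA8 shares 72% of its 50-base stretches with other genes, 47% with its near-identical copy ANXA8L1, so its reads are uncertain, and ANXA8L1 was also called lower with doxorubicin (−1.94 and −2.66). FGFBP1 encodes a secreted carrier that releases fibroblast growth factors from the matrix. Its normalized reads were 3044, 2607 and 2292 in siNT vehicle, 552.8, 473.3 and 610.4 in siNT doxorubicin, 1288, 1232 and 1591 in siMLK4 vehicle and 118.7, 115.1 and 184.2 in siMLK4 doxorubicin. No pair of groups overlapped, and doxorubicin left 20.6% of the vehicle level in siNT and 10.2% in siMLK4 cells (log2 fold changes −2.17, adjusted p = 1.36e-07, and −2.92, adjusted p = 2.75e-08).

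**Figure D2:**
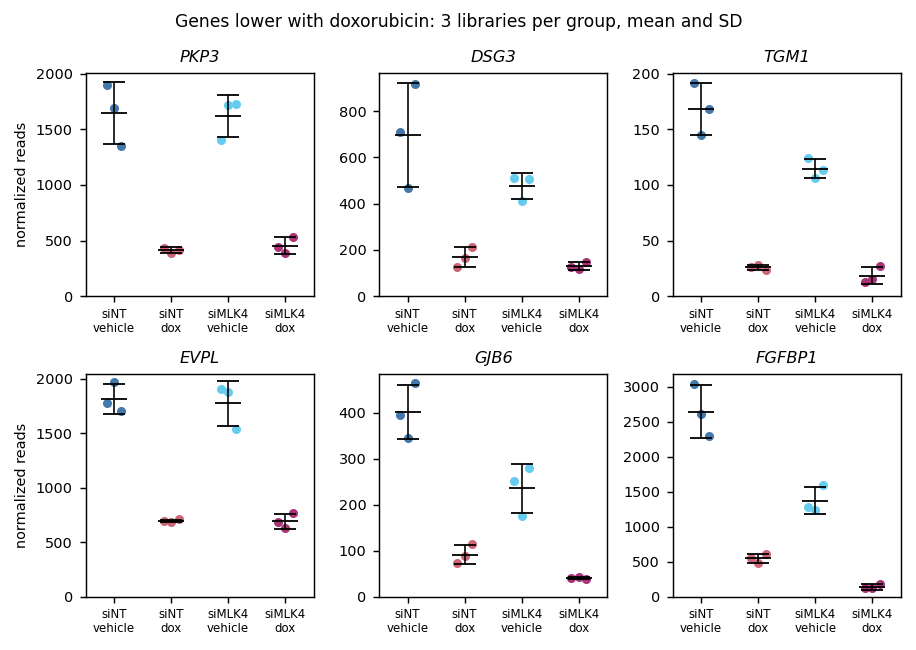
Normalized reads (linear axes from 0) of PKP3, DSG3, TGM1, EVPL, GJB6 and FGFBP1 in each library (points) of the 4 groups, with mean and SD (bars, n = 3). In each panel the doxorubicin libraries lie below the vehicle libraries with the same siRNA, and for FGFBP1 the siMLK4 libraries also lie below the siNT libraries in each condition.

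The secreted and surface genes with a call in both siRNA groups included GJB6, which encodes the gap junction protein connexin 30. It had 394.5, 345.7 and 463.6 normalized reads in siNT vehicle and 71.98, 88.56 and 113.6 in siNT doxorubicin, and 251.5, 175.4 and 278.9 against 40.7, 43.36 and 37.2 in siMLK4 cells. LY6D, a surface protein gene of the Ly6 family, came close to the floor, with 48.14, 70.6 and 66.23 normalized reads in siNT vehicle and 5.537, 5.09 and 1.014 in siNT doxorubicin, and 32.06, 32.88 and 60.54 against 5.088, 0 and 2.722 in siMLK4 cells. Both genes were lower in each treated library than in every untreated one. SERPINB5, the inhibitor gene with the most reads, though not per kilobase, had 7887, 8585 and 9785 normalized reads in siNT vehicle and 4371, 4599 and 5432 in siNT doxorubicin, and 10020, 9021 and 8799 against 3285, 3180 and 3729 in siMLK4 cells. The treated mean was 54.9% and 36.6% of the vehicle mean (log2 fold changes −0.86, adjusted p = 3.6e-05, and −1.44, adjusted p = 5.06e-07), and the siNT call was lost with library totals (−0.62) and upper-quartile scaling (−0.74). RHCG, an ammonia transporter gene, and ABCA12, the lipid transporter gene of lamellar granules, were lower in both as well (−1.28 and −1.24 for RHCG, −1.14 and −1.02 for ABCA12).

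The kallikrein-related peptidase genes lie within 84.7 kb of chromosome 19 (chr19:50943303-51028039). With doxorubicin, 10.6% of all genes were called lower in each siRNA group. Of the kallikrein genes, 4 of 6 were called lower in siNT cells (KLK5, KLK8, KLK10 and KLK11) and 2 of 6 in siMLK4 cells (KLK8 and KLK11). KLK10, which had the most reads of them but fewer per kilobase than KLK5, had 1635, 1662 and 1370 normalized reads in siNT vehicle and 647.8, 511 and 650.9 in siNT doxorubicin. In siMLK4 cells it had 621.2, 657.6 and 872.5 in vehicle and 527.4, 462 and 510.8 with doxorubicin. The siMLK4 vehicle libraries were thus already near the level of siNT doxorubicin, and the log2 fold change with doxorubicin was −1.30 (SE 0.14, adjusted p = 3.31e-06) in siNT and −0.47 (SE 0.14, adjusted p = 0.00958), short of the fold threshold, in siMLK4 cells. KLK8 shares 34.1% of its 50-base stretches with an overlapping read-through gene and KLK9, and its reads are uncertain.

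Responses to doxorubicin in the 2 siRNA groups rest on separate libraries. The 17 genes called lower in both were 77.3% of the 22 called in siNT and 81% of the 21 called in siMLK4 cells, and over all genes the corresponding shares were 71.8% and 71.6% (7.59% of all genes were lower in both). The genes lower in both were SPRR1B, TGM1, EVPL, DSG2, DSG3, PKP1, PKP3, SERPINB5, SERPINB13, KLK8, KLK11, GJB6, LY6D, ANXA8, FGFBP1, RHCG and ABCA12. SPRR2D, CNFN, KLK5, KLK10 and SBSN passed in siNT cells alone, and IVL, CLDN4, LYPD3 and CALML5 in siMLK4 cells alone, which does not show that their responses differ. The Ly6 family gene LYPD3 had 577.7, 622.9 and 491.7 normalized reads in siNT vehicle and 526.9, 486.6 and 544.5 in siNT doxorubicin, which overlap, and 608.2, 671.6 and 712.5 against 413, 288.5 and 418.2 in siMLK4 cells, which do not. CALML5 had 4308, 3184 and 1825 normalized reads in siNT vehicle and 1917, 1337 and 1896 in siNT doxorubicin, and 1453, 2101 and 2841 against 1002, 715.4 and 1321 in siMLK4 cells. Its vehicle libraries spanned more than a doubling in siNT cells, and the 2 siNT groups overlapped.

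Several of these calls rested on single libraries. SPRR2D in siNT cells was lost without replicate 3 of siNT vehicle or replicate 2 of siNT doxorubicin (log2 fold change −0.69 and −0.56), and KLK5 without either of these or siNT vehicle replicate 2 (−0.74 to −0.71). In siMLK4 cells, LYPD3 was lost without siMLK4 vehicle replicate 3 or siMLK4 doxorubicin replicate 2 (−0.72 and −0.61), ABCA12 without siMLK4 vehicle replicate 1 (adjusted p = 0.0107), and CALML5 without siNT vehicle replicate 2, siNT doxorubicin replicate 1 or 3, siMLK4 vehicle replicate 2 or 3, or siMLK4 doxorubicin replicate 1 or 2 (adjusted p = 0.0114 to 0.0484).

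siMLK4 cells were then compared with siNT cells in each condition, which bears on the question of what MLK4 loss changes with and without DNA damage. On the variance-stabilized scale the 4 largest decreases in vehicle were in protease inhibitor genes, while by mean normalized reads SPRR2A (26.8% of the siNT mean) and SPRR2D (27.7%) were below PI3 (30.7%). Of the 9 inhibitor genes, 4 were called lower in vehicle (SERPINB2, SERPINB3, SERPINB4 and PI3), against 3.14% of all genes. With doxorubicin 5 of 9 were (these 4 and SLPI), against 2.93% of all genes. SERPINB2 encodes plasminogen activator inhibitor 2, which is also found in the cornified envelope. It had 2291, 2395 and 2774 normalized reads in siNT vehicle against 648.2, 636.7 and 536.2 in siMLK4 vehicle, and 2972, 3635 and 4049 in siNT doxorubicin against 599.5, 743.8 and 797.5 in siMLK4 doxorubicin. This left 24.4% of the siNT level without drug and 20.1% with it, at log2 fold changes of −1.94 (SE 0.14, adjusted p = 6.57e-07) and −2.23 (SE 0.14, adjusted p = 3.96e-07). Doxorubicin itself did not lower it, with a log2 fold change of 0.50 in siNT cells (adjusted p = 0.00664), under the fold threshold. SERPINB2 shares 18.3% of its 50-base stretches with an unnamed overlapping gene.

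SERPINB3 and SERPINB4 encode the squamous cell carcinoma antigens, which inhibit cathepsins and chymotrypsin-like enzymes. They lie side by side on chromosome 18 and share 24.2% and 20.5% of their 50-base stretches, so that their reads may be split between them. SERPINB4 had 146.8, 178.6 and 218.9 normalized reads in siNT vehicle against 28.05, 28.9 and 25.95 in siMLK4 vehicle, and 118.1, 100.8 and 145 in siNT doxorubicin against 24.59, 9.172 and 23.59 in siMLK4 doxorubicin. SERPINB3 had 153.8, 225.3 and 224.5 against 46.09, 51.81 and 32.43 in vehicle, and 110.7, 95.69 and 94.29 against 16.11, 20.85 and 18.15 with doxorubicin. No library of one siRNA arm reached the other arm. Log2 fold changes were −1.69 and −1.50 for SERPINB4 (adjusted p = 5.38e-06 and 1.89e-05) and −1.49 and −1.31 for SERPINB3 (adjusted p = 5.25e-06 and 2e-05). The same cluster (chr18:63476958-63903888, 427 kb) holds SERPINB5 and SERPINB13, which were not called in either siRNA comparison. In vehicle their log2 fold changes were 0.09 for SERPINB5 and 0.59 for SERPINB13 (adjusted p = 0.0373), and with doxorubicin −0.49 (adjusted p = 0.00861) and −0.77 (adjusted p = 0.0101), both without overlap between the siRNA arms with doxorubicin.

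PI3 and SLPI encode small secreted inhibitors of neutrophil elastase and lie close to each other on chromosome 20. PI3 had 3715, 2877 and 2516 normalized reads in siNT vehicle against 765.5, 1044 and 990.3 in siMLK4 vehicle, and 2555, 1978 and 2002 against 876.8, 804.7 and 759.4 with doxorubicin. With siMLK4 it stood at 30.7% and 37.4% of its siNT level (log2 fold changes −1.64, adjusted p = 6.27e-06, and −1.36, adjusted p = 3.86e-05). SLPI had 2070, 1265 and 1073 normalized reads in siNT vehicle against 533, 706.4 and 1121 in siMLK4 vehicle, which overlap, and 2010, 1536 and 1550 against 781, 820.5 and 851.9 with doxorubicin, which do not. It passed with doxorubicin (log2 fold change −0.998, adjusted p = 0.0075) but not in vehicle (−0.86, adjusted p = 0.016), and with the replicate block the doxorubicin call was lost (adjusted p = 0.0146).

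**Figure D3:**
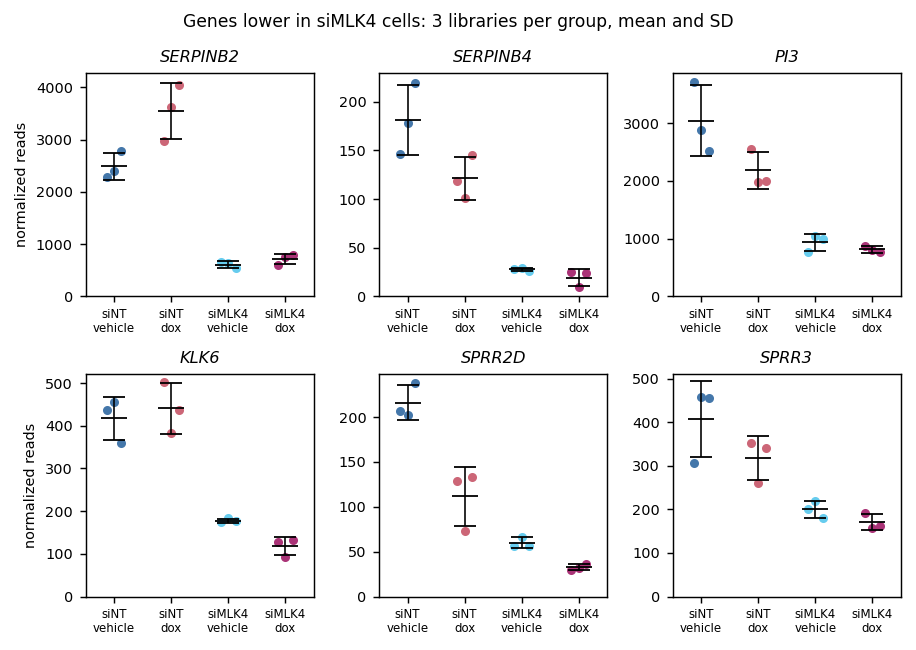
Normalized reads (linear axes from 0) of SERPINB2, SERPINB4, PI3, KLK6, SPRR2D and SPRR3 in each library (points) of the 4 groups, with mean and SD (bars, n = 3). In every panel the siMLK4 libraries lie below the siNT libraries of the same condition.

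In siMLK4 cells, 6 of the 10 cornified envelope genes were called lower in vehicle (SPRR1A, SPRR1B, SPRR2A, SPRR2D, SPRR3 and CNFN) and 4 with doxorubicin (IVL, SPRR2A, SPRR2D and PPL). The shares of all genes called lower were 3.14% in vehicle and 2.93% with doxorubicin. The SPRR genes and IVL are neighbors on chromosome 1, within 149 kb (chr1:152908546-153057512), and those with the letters TGANTCA are among the promoters printed above. SPRR2D had 206.7, 202.4 and 238 normalized reads in siNT vehicle against 56.11, 66.76 and 56.22 in siMLK4 vehicle, and 128.3, 73.29 and 132.8 against 29.68, 31.69 and 36.29 with doxorubicin. The siMLK4 mean was 27.7% and 29.2% of the siNT mean (log2 fold changes −1.32, adjusted p = 2.38e-05, and −1.04, adjusted p = 0.000201). SPRR2A stood at 26.8% and 19% and SPRR1B at 53.2% and 58.2% of the siNT mean. SPRR2A and SPRR2D share 34.4% and 19.4% of their 50-base stretches with each other and other SPRR2 genes, and the order of levels among them is uncertain. IVL, the involucrin gene, had 237.2, 368.6 and 316.6 normalized reads in siNT vehicle against 186.4, 242.1 and 191.4 in siMLK4 vehicle, which overlap, and 193.8, 179.2 and 192.6 against 78.86, 65.87 and 69.86 with doxorubicin, which do not. PPL was called lower in the presence of doxorubicin, at 55.7% of the siNT mean (log2 fold change −0.82, adjusted p = 0.000993), and was at 63.6% in vehicle (−0.65, adjusted p = 0.00442), under the fold threshold.

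Of the 9 desmosome genes, 1 was called lower in siMLK4 vehicle (11.1%, against 3.14% of all genes) and 2 with doxorubicin (22.2%, against 2.93%). DSC3 was called lower in vehicle (56.6% of the siNT mean, log2 fold change −0.78, adjusted p = 0.00491) and with doxorubicin (35.7%, −1.41, adjusted p = 8.07e-05), and PKP1, which encodes plakophilin 1, with doxorubicin (51%, −0.94, adjusted p = 0.000373). DSC3 had 1436, 1747 and 2273 normalized reads in siNT vehicle against 1259, 970.5 and 858.4 in siMLK4 vehicle, and 1501, 1972 and 1939 against 580.8, 748 and 602.4 with doxorubicin. The other 7 desmosome genes were not called in either condition. PKP3, which fell strongly with doxorubicin, stood at 98.2% and 110% of the siNT mean, EVPL at 97.6% and 99.4%, and DSP at 108% and 99.5%, with overlapping libraries in each case.

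Among the peptidases, KLK6 was called lower in both conditions and KLK10 in vehicle. KLK6 had 436.8, 455.8 and 360.4 normalized reads in siNT vehicle against 174.3, 183.3 and 176.2 in siMLK4 vehicle, and 502, 383.8 and 436 against 128.9, 93.39 and 131.6 with doxorubicin. The siRNA arms were well apart, at 42.6% and 26.8% of the siNT mean (log2 fold changes −1.03, adjusted p = 7.38e-05, and −1.56, adjusted p = 3.4e-06). KLK10 stood at 46.1% in vehicle (−1.07, adjusted p = 7.9e-05) and, with overlapping libraries, at 82.9% with doxorubicin (−0.24, adjusted p = 0.22). FGFBP1, described above, was at 51.8% and 25.5% of the siNT mean (log2 fold changes −0.92, adjusted p = 0.000781, and −1.67, adjusted p = 8.49e-06). SBSN, which encodes the secreted keratinocyte protein suprabasin, was at 33% and 41.8% (−1.25 and −0.81), and RHCG at 43.3% and 37.2% (−1.06 and −1.02).

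The siRNA comparisons in vehicle and with doxorubicin also use separate libraries. Lower in both were SPRR2A, SPRR2D, DSC3, SERPINB2, SERPINB3, SERPINB4, PI3, KLK6, FGFBP1, SBSN and RHCG. These 11 genes were 64.7% of the 17 called in vehicle and 68.8% of the 16 called with doxorubicin, against 53.9% and 57.8% over all genes (1.69% of all genes were lower in both). SPRR1A, SPRR1B, SPRR3, CNFN, KLK10 and GJB2 passed in vehicle alone, and IVL, PPL, PKP1, SLPI and LY6K with doxorubicin alone. Of the 50 genes, 40 had a negative fold change in vehicle and 47 with doxorubicin, against 8229 and 8033 of all 17013 genes. In both conditions 38 of the 50 were negative, and the share of all genes negative in both was not counted.

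**Figure D4:**
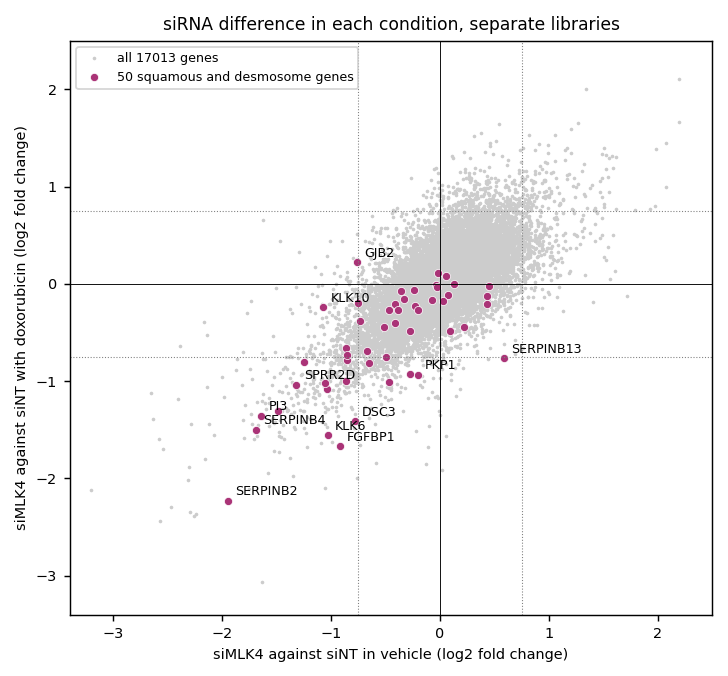
Log2 fold change of siMLK4 against siNT in vehicle (horizontal) and with doxorubicin (vertical) for the 50 genes (purple) and all 17013 genes (gray), with dotted lines at 0.75 and −0.75. The purple points lie mostly at the lower left, with SERPINB2 farthest out at −1.94 and −2.23, and GJB2 and SERPINB13 off the trend.

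Here too some calls depended on single libraries. In vehicle, CNFN was lost without any of 10 libraries (all but siNT vehicle replicate 3 and siMLK4 vehicle replicate 3, adjusted p = 0.013 to 0.044). In a fit of the 2 vehicle groups alone, 2 of the 6 envelope genes called lower remained (SPRR2A and SPRR2D), and SPRR3 (adjusted p = 0.0157), SPRR1B (0.0186), SPRR1A (0.03) and CNFN (0.0724) were lost, as was DSC3 (0.0366). SPRR1A was lost without siNT vehicle replicate 2 or 3, any siMLK4 vehicle replicate or siMLK4 doxorubicin replicate 1 (adjusted p = 0.0106 to 0.0318), and SPRR1B without siNT vehicle replicate 2 or 3 or siMLK4 vehicle replicate 1 or 2 (adjusted p = 0.016 to 0.0171). DSC3 was lost without replicate 2 or 3 of either vehicle group (adjusted p = 0.016 to 0.0219), and GJB2 without siNT vehicle replicate 3 (−0.70). With doxorubicin, PPL was lost without siNT doxorubicin replicate 3 (−0.74), LY6K (adjusted p = 0.0106) and SBSN (−0.74) without siMLK4 doxorubicin replicate 1, and SLPI without replicate 2 of either vehicle group or any doxorubicin replicate (adjusted p = 0.0112 to 0.034).

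The difference between the doxorubicin responses of siMLK4 and siNT cells was tested as an interaction in the same fit. None of the 50 genes met both thresholds (47 of all genes did, 0.276%, with 0.0999% higher and 0.176% lower), and 2 had an adjusted p under 0.05, as did 1.2% of all genes. GJB2, which encodes the gap junction protein connexin 26, had 829, 815 and 934 normalized reads in siNT vehicle, 1211, 1166 and 1010 in siNT doxorubicin, 482.9, 479.3 and 491.9 in siMLK4 vehicle and 1382, 1533 and 1096 in siMLK4 doxorubicin. It was thus the lowest in siMLK4 vehicle, rose to 276% of the vehicle mean in siMLK4 cells (log2 fold change 1.36, adjusted p = 8.85e-07) and stood at 131% in siNT cells (0.37, adjusted p = 0.0181). The responses differed by 0.99 (SE 0.17, adjusted p = 0.0136), and without siMLK4 doxorubicin replicate 1 the adjusted p was 0.0612. Its neighbor GJB6, in the same 44.9 kb of chromosome 13 (chr13:20187463-20232365), fell in both siRNA groups, and its responses differed by −0.02 (adjusted p = 0.985).

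SERPINB13 encodes headpin, a serpin of keratinocytes that inhibits cathepsins. It had 275.9, 391.4 and 449 normalized reads in siNT vehicle, 132.9, 159.8 and 207.8 in siNT doxorubicin, 715.4, 544 and 486.5 in siMLK4 vehicle and 87.34, 55.03 and 97.08 in siMLK4 doxorubicin. The siMLK4 libraries lay above the siNT libraries in vehicle and below them with doxorubicin. Doxorubicin left 44.8% of the vehicle mean in siNT and 13.7% in siMLK4 cells, and the responses differed by −1.35 (SE 0.27, adjusted p = 0.027). That adjusted p passed 0.05 without siNT vehicle replicate 1, siNT doxorubicin replicate 2 or 3, siMLK4 vehicle replicate 1 or 2, or siMLK4 doxorubicin replicate 1 or 2 (0.0504 to 0.0763). Short of the 0.05 level were KLK10 (0.83, adjusted p = 0.0553) and PKP1 (−0.73, adjusted p = 0.0941).

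**Figure D5:**
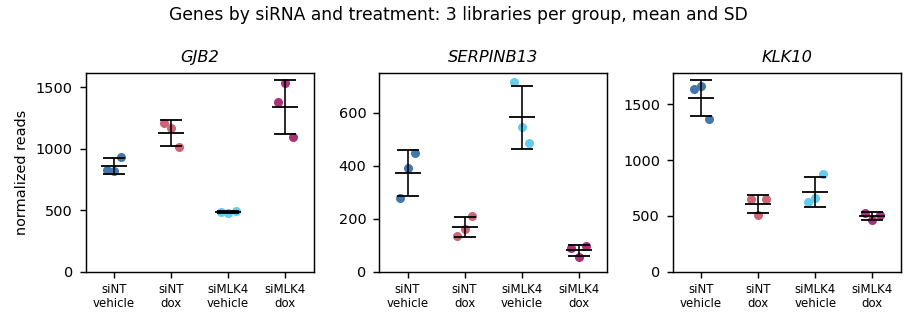
Normalized reads (linear axes from 0) of GJB2, SERPINB13 and KLK10 in each library (points) of the 4 groups, with mean and SD (bars, n = 3). GJB2 goes from the lowest group to the highest within siMLK4 cells, SERPINB13 from the highest to the lowest, and KLK10 in siMLK4 vehicle lies near its level in siNT doxorubicin.

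Of the 50 genes, 39 were called in at least 1 of the 4 comparisons, as were 34% of all genes, and 11 in none. The 11 were DSG1, DSC2, DSP, JUP, CSTA, A2ML1, KLK7, CLDN1, CLDN7, LCN2 and ECM1. CLDN1, the most abundant of the tight junction genes, had 6073, 4036 and 6373 normalized reads in siNT vehicle, 5284, 5637 and 7234 in siNT doxorubicin, 3791, 3632 and 4772 in siMLK4 vehicle and 4457, 3741 and 5562 in siMLK4 doxorubicin. Its groups overlapped in every comparison. CSTA, which encodes the envelope protein cystatin A, had log2 fold changes with doxorubicin of −0.86 and −0.85 beyond the fold threshold, but its vehicle libraries spanned 1409 to 2433 normalized reads in siNT and 1290 to 2693 in siMLK4 cells, and the adjusted p was 0.0206 and 0.0214. CLDN7 was at 145% and 139% of the vehicle mean with doxorubicin, without overlap, but below the fold threshold (0.53 and 0.46). These genes are not shown to be unaffected.

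Other genes of the same pathways were read from lists chosen with earlier results of these data known. Their counts stand against the shares of all genes given above, 10.6% lower with doxorubicin in each siRNA group, 12.1% and 12.6% higher, and 3.14% and 2.93% lower in siMLK4 cells. Of 31 other cornified envelope and epidermal differentiation genes, 15 were measured. FLG, LORICRIN and 14 others were not analysed here. Doxorubicin went with 6 lower and 1 higher in siNT cells and 2 lower and 1 higher in siMLK4 cells, and siMLK4 with 8 lower in vehicle and 4 with doxorubicin, with 0 higher. LCE3D, a late envelope gene, had mean normalized reads of 455.2 in siNT vehicle, 88.75 in siNT doxorubicin, 119.2 in siMLK4 vehicle and 18.97 in siMLK4 doxorubicin, and was called lower in all 4 comparisons, which share libraries. TGM2, which encodes tissue transglutaminase, had 172.9, 44.98, 23.76 and 8.152 in the same order, with siMLK4 log2 fold changes of −1.73 and −0.98. TCHH, the trichohyalin gene, went the other way with doxorubicin, from 50.73 to 408.7 in siNT and from 69.76 to 698.6 in siMLK4 cells.

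Of 10 other desmosome and adherens junction genes, 9 were measured. None was called with doxorubicin in siNT cells and 3 were lower in siMLK4 cells. PERP, a desmosomal membrane protein and p53 target gene, was the sole gene of this list called in siMLK4 against siNT cells, with log2 fold changes of −0.81 in vehicle (adjusted p = 0.000285) and −1.27 with doxorubicin (adjusted p = 9.61e-06). Of 20 other tight and gap junction genes, all measured, doxorubicin went with 4 lower and 1 higher in siNT cells, and with 6 lower in siMLK4 cells. In siMLK4 against siNT cells, 3 were lower and 3 higher in vehicle, and 3 lower with doxorubicin. Among the lower ones was the connexin gene GJB5, in both conditions (−0.94 and −1.22), and the higher ones were CGN (1.03), TJP3 (0.96) and CLDN8 (0.89), the last named after its value was seen to complete the count.

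Of 25 other epidermal peptidase and inhibitor genes, 19 were measured, with 5 lower and 2 higher with doxorubicin in siNT and 5 lower in siMLK4 cells. SERPINB7 (−0.86 and −1.07) and SERPINB8 (−1.07 and −1.06) were lower in siMLK4 cells in vehicle and with doxorubicin. Of 18 lipid barrier genes 15 were measured, with 4 higher and 2 lower with doxorubicin in each siRNA group, and the 2 lower were 13.3% of those measured, near the 10.6% of all genes. SMPD1, the acid sphingomyelinase gene, rose (1.69 and 1.38), while SULT2B1, a cholesterol sulfotransferase gene (−1.50 and −1.36), and CERS3, a ceramide synthase gene (−1.12 and −1.53), fell. None of these lipid genes was called in siMLK4 vehicle, and 2 were higher with doxorubicin. Of 14 Notch pathway genes, 2 were lower with doxorubicin in siNT cells and 3 lower and 1 higher in siMLK4 cells, among them the ligand gene JAG2 (−1.58 and −1.07), and in siMLK4 against siNT cells 0 were called in vehicle and 2 were higher with doxorubicin.

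All 29 listed transcription factor genes of squamous epithelium were measured, with 7 higher and 3 lower with doxorubicin in siNT cells and 4 higher and 3 lower in siMLK4 cells. The 3 lower genes were 10.3% of the list in each siRNA group, near the 10.6% of all genes. TP63 went from 4837 to 1552 mean normalized reads in siNT cells (log2 fold change −1.60, adjusted p = 3.55e-05) and from 3510 to 1132 in siMLK4 cells (−1.58, adjusted p = 3.9e-05). OVOL1, a repressor gene of differentiating epithelia, rose (1.68 and 1.62). In siMLK4 against siNT cells, 3 were lower and 1 higher in vehicle and 2 lower with doxorubicin. EHF, an epithelial ETS factor gene (−0.78 and −0.93), and VDR, the vitamin D receptor gene (−0.83 and −0.97), were lower in both conditions, and KLF4 in vehicle (−0.85, adjusted p = 0.00542).

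In siMLK4 against siNT cells, 4 of the 9 basal and squamous markers were called lower in vehicle and 5 with doxorubicin (3.14% and 2.93% of all genes), and 3 of the 9 had a positive fold change in vehicle, KRT13 the highest at 0.95, which was not called. KRT6A, a keratin gene of wounded and hyperproliferative epidermis, had means of 13800 normalized reads in siNT vehicle, 5308 in siNT doxorubicin, 6001 in siMLK4 vehicle and 2573 in siMLK4 doxorubicin. KRT14, a keratin gene of the basal layer, had 6001, 2461, 2870 and 996.2 in the same order. Its partner KRT5 was lower with doxorubicin (−1.24 and −2.20) but was not called in siMLK4 against siNT cells (0.64 and −0.32). KRT6A and KRT6B share 32.2% and 46.6% of their 50-base stretches with other keratin genes, and their levels are uncertain. Of the luminal markers, 0 were called in siMLK4 against siNT cells in either condition, and with doxorubicin 2 of 8 were lower and 1 higher in siNT cells and 3 lower and 1 higher in siMLK4 cells (10.6% of all genes were lower in each, and 12.1% and 12.6% higher). The lower ones were KRT18 and KRT19 in both (−1.18 and −1.68 in siNT, −1.28 and −2.47 in siMLK4 cells) and ESR1 in siMLK4 cells (−0.78), and the higher one was PGR, at a mean of 6.23 normalized reads over all libraries.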

How the data were processed

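Poly(A)-selected RNA of 12 HCC1806 libraries (3 per group) was sequenced. The submitters' processing notes list Trimmomatic 0.39, HISAT2, HTSeq 0.6.0 and DESeq2 1.26.0 with build hg19, whereas the supplementary methods name GRCh38 and strand-specific (reverse) counting. The table gives Ensembl identifiers alone, so coordinates and names are from GENCODE 44 (GRCh38, 16957 genes matched). The values deposited by the authors are log2-scale, variance-stabilized reads. This transformation was read from the values and inverted, which returned whole reads (tolerance 0.05) for 100% of values and size factors of 0.852 to 1.199. No column of another sample or of the authors' own comparisons was in the table. The lowest mean in a gene's highest group was 10.67, so low genes had been filtered out.

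Contrasts were fitted with limma 3.58.1 (R 4.3.3, lmFit and eBayes with trend, 8 residual degrees of freedom) and checked on simulated data. Values were named for MAP3K21, the 4 members changed most per contrast and direction and the most abundant member per role. TGM1, EVPL, GJB6, LY6D, IVL, DSC3, DSG1, SLPI and SPRR2D, and the keratin genes among the markers, were added after their values were seen. Values are also printed for members outside both selections, such as JUP, CSTA, CLDN7, RHCG, ABCA12, SBSN, PKP1 and DSC2. Some listed genes are not reported here by name. The members, roles and lists were chosen with earlier results of these data known. Equally numbered libraries deviated together between vehicle and doxorubicin in siNT cells (correlations 0.46, 0.105 and 0.205) and between siNT and siMLK4 with doxorubicin (0.19, 0.516 and 0.559). Between vehicle and doxorubicin in siMLK4 cells the correlations were of mixed sign (−0.077, 0.176 and 0.337). Between siNT and siMLK4 in vehicle they were −0.723, 0.325 and −0.523, so that replicates 1 and 3 deviated in opposite directions. Alternatives were other scalings, limma-voom, pseudocounts of 1 and 8, a minimum mean of 50, the compared groups alone, a replicate block, no variance trend, another threshold and each library left out. Leaving out both vehicle libraries that stood apart was chosen after seeing the data. Depth precision covers counting error only. Shared sequence was counted as 50-base stretches of a gene's transcripts found in other genes.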

Additional observations from a re-analysis of the deposited data

Results flagged for a closer look

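GJB2 and SERPINB13 were singled out because their doxorubicin responses differed between siMLK4 and siNT cells in the test of the difference itself. For GJB2 the response in siMLK4 minus that in siNT cells was 0.987 on the log2 scale (adjusted p = 0.0136), and for SERPINB13 it was −1.35 (adjusted p = 0.027). Neither had an adjusted p under 0.01, and neither kept an adjusted p under 0.05 when each library was left out in turn, with 1 library deciding for GJB2 (siMLK4 doxorubicin replicate 1, adjusted p = 0.0612 without it) and 7 for SERPINB13 (adjusted p = 0.0504 to 0.0763).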

How the results depend on the processing

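Of the 79 member values followed, 71 could be run under all 11 other settings, and 53 of these kept their call under each of them and every library left out. The other 8 were not run under at least 1 setting, which left out genes of low mean or the interaction. Of the 79, 16 were lost under at least 1 library left out, 15 under at least 1 other setting, and 0 changed sign. The 79 were chosen for their size, so the count of sign changes says little. The setting of adjusted p under 0.05 with no fold threshold could not lose any of them, since each passes it by definition. Voom called 1483 and 1466 genes for siMLK4 in vehicle and with doxorubicin and 29 for the interaction, against 961, 950 and 47. A pseudocount of 1 gave 1613 genes for siMLK4 in vehicle, and a pseudocount of 8 gave 1611 and 1484 in the 2 conditions, while the fit of the compared groups alone gave 611 in vehicle. Called higher with doxorubicin in siNT cells were 2 members with library totals and 1 each with voom and either pseudocount, against 0, and 11 members were lower for siMLK4 in vehicle with library totals, against 17. At adjusted p under 0.05 with no fold threshold, 9745, 9858, 4381, 4219 and 204 genes passed in the 5 contrasts. Members were then 5 higher and 31 lower with doxorubicin in siNT cells, 3 higher and 34 lower in siMLK4 cells, 2 higher and 24 lower for siMLK4 in vehicle, 0 higher and 25 lower with doxorubicin, and 1 higher and 1 lower in the interaction. Leaving out each library in turn gave 0 to 37 genes for the interaction, 0 to 1 members higher with doxorubicin in siNT cells and 0 to 1 higher in the interaction. Leaving out both vehicle libraries that stood apart gave 13 interaction genes. With the replicate block, the calls of CALML5 with doxorubicin in siMLK4 cells (−1.03, adjusted p = 0.0144), CNFN (−0.75, adjusted p = 0.0183) and SPRR1A (−0.85, adjusted p = 0.0102) for siMLK4 in vehicle, and SLPI for siMLK4 with doxorubicin (−0.998, adjusted p = 0.0146) were lost, and no other member call. Causes of these shifts were not tested. By mean reads over the 12 libraries, depth limits LY6D, DSG1 and KLK7 the most. In siMLK4 doxorubicin alone, KLK8 (8.74 normalized reads) and SPRR2A (11.4) were below DSG1 (34.2). So were SERPINB3 (18.4), TGM1 (18.6), SERPINB4 (19.1), CNFN (27.8) and SPRR2D (32.55), and ratios that use this group rest on few reads for these genes.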
